A study of Mus musculus with 29 samples.

Results

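Colitis under IL-10 deficiency was compared with the untreated wild-type colon by RNA-seq of whole colon segments, with 1 library per mouse. The samples were chosen by their group labels, 4 IL-10 deficiency mice and 3 untreated wild-type mice (numbered 1, 2 and 4), 7 of the 29 mice of the series, with all genes of the count table. The labels give Balb/C for all 7 mice and no age, and name the treatment of the model as a blocking antibody to IL10. Their protocol describes 750 µg of an antibody to the IL-10 receptor injected into the peritoneum, with culling after 4 weeks or earlier if colitis was seen. The methods of the study describe something else, Il10-/- mice given microbiota of other mice by gavage, and name C57BL/6 as the strain of purchased wild-type mice. Which of these accounts holds for the 4 libraries cannot be told apart from counts per gene, so the mice are called IL-10 deficiency mice by their label. Neither the antibody nor the gavage had a vehicle or isotype group, and the controls were untreated. The same 3 wild-type mice are the controls of 2 other models used below, DSS (3% in drinking water for 5 days, culled at day 10, 3 mice) and DNBS (3 mg in ethanol, given rectally, 3 mice), both also labelled Balb/C. For DSS the methods of the study instead name C57BL/6 mice and an earlier day of culling.

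IL-10 is a cytokine made by regulatory T cells, other T cells, B cells and macrophages, and it acts through a receptor of the subunits IL-10Ra and IL-10Rb on JAK1, TYK2 and STAT3. Its main targets in the gut are macrophages and dendritic cells, in which it lowers the production of inflammatory cytokines, chemokines and nitric oxide, and the display of antigen. Loss of IL-10 or of its receptor leads to colitis in mice that carry intestinal bacteria and to early-onset bowel disease in people.

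Total counts ran from 11468819 to 13524777 over the 7 libraries, and a mouse without any count for a gene could still hold up to 3 counts, a limit of counting error only. Levels are given as CPM (counts scaled to library size with TMM), which compare a gene between mice and not genes with each other, since they are not divided by gene length. Values are listed in the order of control mice 1, 2 and 4 and then of IL-10 deficiency mice 1 to 4. Changes are log2 differences, IL-10 deficiency minus control, with the standard error (SE) and the adjusted p of edgeR's quasi-likelihood test, called below 0.05. No label says that the mice came from separate cages or litters, so p values measure only the spread between single mice. That spread was estimated over all 29 mice of the series in their 9 groups, not from these 7 mice alone. In whole tissue, fewer cells of a type and less RNA of a gene per cell cannot be told apart.

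Il10 itself did not read as an absent gene. Il10 stood at 0.0762, 0.266 and 0.246 CPM in the controls and at 8.93, 11.5, 5.23 and 7.84 CPM in the IL-10 deficiency mice, 40.3-fold higher (log2 5.33 ± 0.82 (SE), edgeR adjusted p = 1.7e-05). Counts per gene do not show whether a transcript codes for a working protein, so this level checks neither a knockout nor an antibody. The strain labels were checked with H2-Ea-ps, the gene of the I-E alpha chain, which Balb/C mice express and C57BL/6 mice do not. It read at most 0.104 CPM in the libraries of both groups, DSS and DNBS, which goes against their Balb/C label. Across the series it did not follow the strain labels, with 67.7 to 317 CPM in the Rag2 control and TRUC libraries labelled Balb/C and in the Rag1 control and anti-CD40 libraries labelled C57BL/6, and no count in the T cell transfer libraries labelled C57BL/6. Nnt, also listed as a strain gene, read at most 0.589 CPM in all 29 libraries, whatever their strain label. The ribosomal protein gene copies Rps3a1 and Rps3a2 did separate the groups, with Rps3a1 at 861 to 898 CPM in the controls and 220 to 286 CPM in the IL-10 deficiency mice, and Rps3a2 at 3.43 to 4.33 CPM and 377 to 466 CPM. The DSS and DNBS mice lay near the controls, with Rps3a1 at 670 to 1050 CPM and Rps3a2 at 2.52 to 4.57 CPM. Rps3a1 and Rps3a2 share 71.0% and 90.2% of their 50-base windows with other copies, so the values of each copy are uncertain. A difference in strain or substrain between the groups was not tested, and it cannot be told apart from the treatment in the comparisons below.

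The tissue label was checked next. The epithelial genes Krt20, Cldn7 and Vil1 were present in every library. The transcription factor Hoxb13, which marks the distal colon, stood at 444, 408 and 574 CPM in the controls and at 457, 456 and 344 CPM in IL-10 deficiency mice 1 to 3, but at 0.209 CPM in mouse 4. Hoxd13, another distal gene, stood at 249 to 274 CPM in the controls and at 249, 275, 7.89 and 0.313 CPM in the 4 IL-10 deficiency mice. Mouse 4, and in part mouse 3, were thus low in genes of the distal colon that the other 5 mice expressed.

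Other genes moved the opposite way in the same animals. Cdx2, a transcription factor of the intestinal epithelium, read 3.88, 4.33 and 8.11 CPM in the controls and 15.6, 11.3, 167 and 469 CPM in the IL-10 deficiency mice. Slc51a, a subunit of the bile acid exporter of the ileum and proximal gut, read 119 CPM in mouse 4 and at most 0.623 CPM in the other 6 mice. Fabp2, the fatty acid binding protein of absorbing enterocytes, read 232 CPM in mouse 4, 43.7 CPM in mouse 3 and 6.19 to 7.84 CPM elsewhere. Fabp6, listed as a region gene like Cdx2, kept a similar size of change without these mice, but its call was borderline. Its log2 difference from the controls was 1.54 with all mice (edgeR adjusted p = 0.048). It was 1.34 without mouse 4 and 1.69 without mice 3 and 4 (adjusted p = 0.11 and 0.062). The call was also lost without mouse 2 (adjusted p = 0.13), without any single control mouse and with upper quartile scaling (adjusted p = 0.072). The labels speak of colon segments without saying where along the colon they were cut, and the methods of the study name the distal region for colon RNA used on microarrays, not for these libraries. In mouse 4, 159 genes stood at least 4-fold above and 226 at least 4-fold below the mean of mice 1 and 2, against 37 and 27 genes in mouse 3. The position of the segment was not tested as a part in any result, and results that rest on mouse 4 are given below with and without it.

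**Figure D1:**
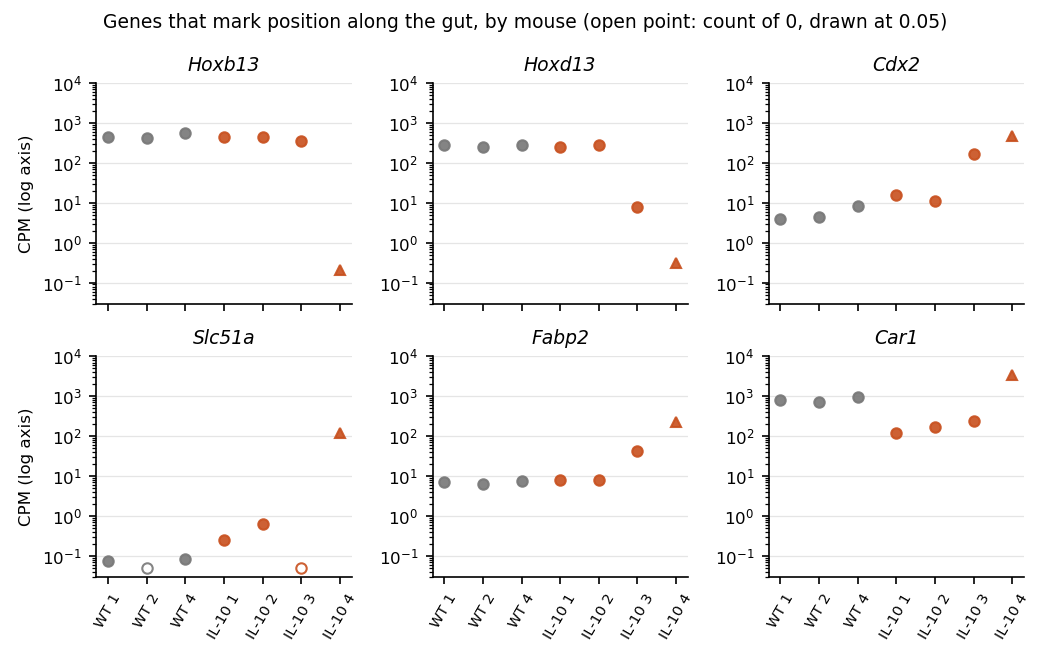
CPM (log axis) of 6 genes that mark position along the gut in the 3 wild-type control mice (grey) and the 4 IL-10 deficiency mice (orange, mouse 4 as a triangle). Hoxb13 is at 0.209 CPM in mouse 4 and at 344 to 574 CPM in the other 6 mice, and Slc51a is at 119 CPM in mouse 4 and at most 0.623 CPM elsewhere.

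Over the whole genome, similar numbers of genes rose and fell. Of 18616 genes, 5058 (27.2%) were higher and 4858 (26.1%) lower in IL-10 deficiency, and the mice of the groups did not overlap for 4558 of the higher and 4492 of the lower genes. The change was 4-fold or more for 974 higher and 732 lower genes. Without mouse 4, 4462 of the higher and 4318 of the lower genes kept their call, and without mice 3 and 4 it was 4108 and 3677. The split between directions depended on scaling, since upper quartile scaling placed the median of all genes at -0.18 on the log2 scale, against -0.01 with TMM, and gave 3854 higher and 6187 lower genes (38.4% of calls higher, against 51.0%). The list counts below are to be read against 27.2% and 26.1% of all genes.

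**Figure D2:**
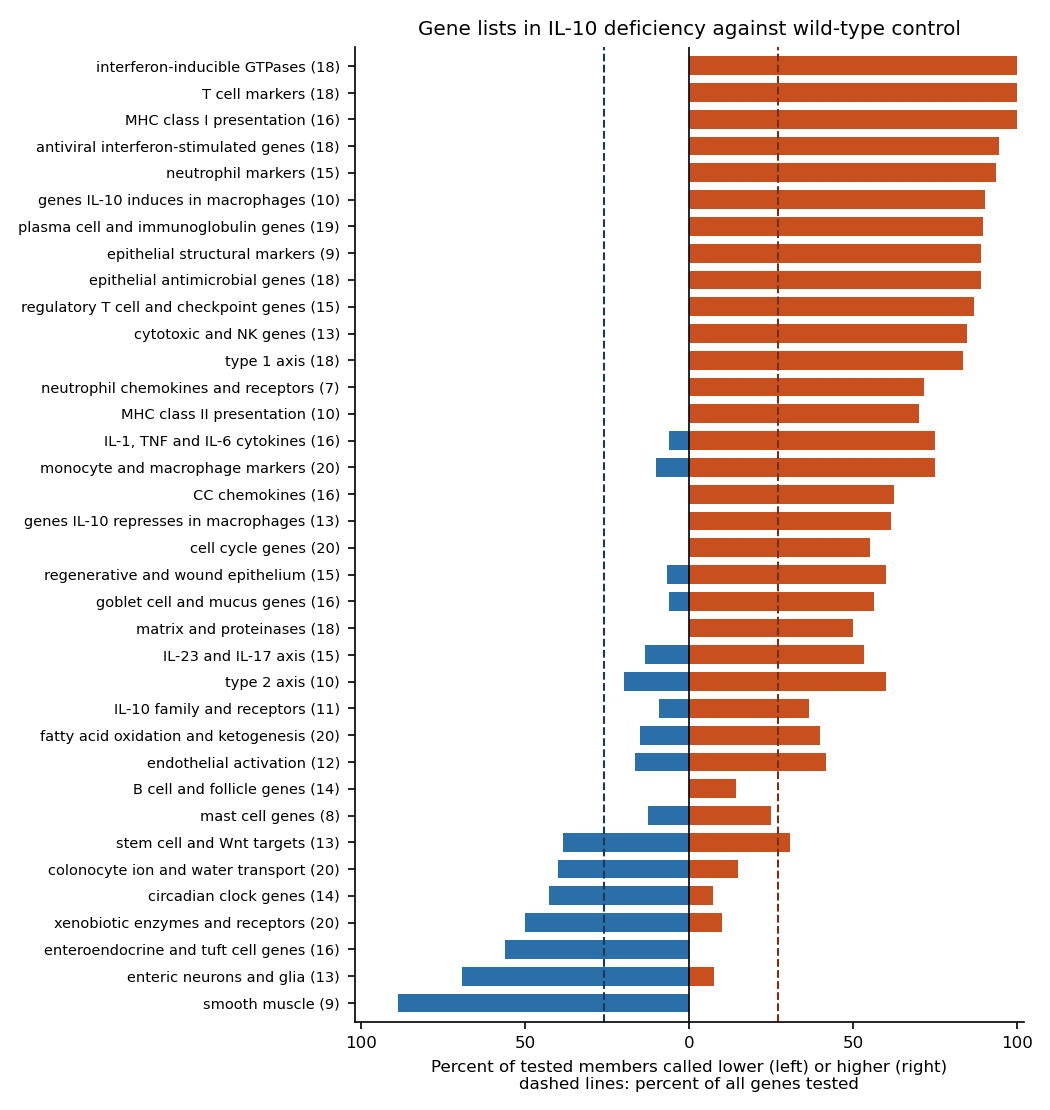
Percent of the tested members of 36 gene lists (number tested in brackets) that were called higher (orange, right) or lower (blue, left) in IL-10 deficiency against the wild-type control, with dashed lines at 27.2% and 26.1%, the percent of all genes tested. All tested members of the interferon-inducible GTPase, T cell and MHC class I lists were higher, and the smooth muscle, enteric neuron and enteroendocrine lists lie on the other side.

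The binding chain of the cytokine's receptor rose, as did most of the genes that IL-10 induces in macrophages. Il10ra, the binding chain, went from 7.19 to 8.68 CPM in the controls to 16.8 to 27.5 CPM (log2 1.40 ± 0.37, edgeR adjusted p = 0.0029). Il10rb, the shared chain, read 42.5 to 49.5 CPM and 43.2 to 78.8 CPM and was not called (log2 0.33, adjusted p = 0.088), although it was without IL-10 deficiency mouse 1 (log2 0.44, adjusted p = 0.027). Stat3, the transcription factor of the pathway, differed by a log2 of 0.49 ± 0.18 (adjusted p = 0.023), a call lost without control mouse 1 (0.42, adjusted p = 0.10) or 2 (0.45, adjusted p = 0.078). Of 11 tested genes of the IL-10 family and its receptors 4 rose and 1 fell (median log2 0.33, against -0.01 over all genes). The gene that fell was Il22ra1, the epithelial receptor chain for IL-22, from 71.7 to 72.9 CPM to 40.5 to 62.0 CPM (log2 -0.47, adjusted p = 0.030), and its call was lost without any of the 3 controls, without mouse 3 or without mouse 4 (log2 -0.48 to -0.38).

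Of 10 genes that IL-10 induces in macrophages 9 rose and none fell (median log2 1.44). Socs3, the inhibitor of cytokine receptors that STAT3 switches on, stood at 7.01, 9.25 and 10.0 CPM in the controls and at 118, 260, 135 and 168 CPM in the IL-10 deficiency mice (log2 4.28 ± 0.65, edgeR adjusted p = 1.4e-05). Il4ra, a receptor chain for IL-4 and IL-13, rose 6.20-fold, and Bcl3, a regulator of NF-kappaB, 3.45-fold. Other cytokines induce these genes as well, which the list cannot separate.

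Of 13 tested genes that IL-10 represses in macrophages 8 rose and none fell, with a median log2 of 3.53. Nos2, the inducible nitric oxide synthase, stood at 0.305, 0.266 and 0.656 CPM in the controls and at 342, 486, 365 and 717 CPM in the IL-10 deficiency mice. All IL-10 deficiency mice lay far above all controls, a difference of 1170-fold (log2 10.19 ± 1.27, edgeR adjusted p = 1.6e-06). Tnf, the gene of the cytokine TNF, rose from 1.75, 0.732 and 1.31 CPM to 29.7, 37.2, 28.7 and 54.1 CPM (log2 4.89 ± 0.86, adjusted p = 6.6e-05). Il1b, which codes for IL-1 beta, rose from 1.60, 0.732 and 1.72 CPM to 40.9, 43.2, 28.8 and 66.8 CPM (log2 5.07 ± 0.97, adjusted p = 0.00016).

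The list did not move as a block. Il12b, the p40 chain of IL-12 and IL-23, rose from at most 0.246 CPM to 0.940 to 3.17 CPM (log2 3.53 ± 1.15, edgeR adjusted p = 0.013), a call lost without control mouse 2 (2.89, adjusted p = 0.063). Its partners did not pass: Il23a, the p19 chain of IL-23, read 0.0820 to 0.838 CPM in the controls and 0.169 to 0.522 CPM in the IL-10 deficiency mice (adjusted p = 0.61), and Il12a, the p35 chain of IL-12, 0.492 to 0.732 CPM and 0.104 to 0.429 CPM (adjusted p = 0.11). Il12a was called lower in the edgeR fit on the 2 groups (log2 -1.53, adjusted p = 0.036) and with a replicate block (-2.18, adjusted p = 0.03). Il6 read at most 1.04 CPM in any mouse (adjusted p = 0.24), and Ptgs2, the inducible cyclooxygenase, 7.65 to 11.4 CPM and 5.74 to 10.9 CPM (adjusted p = 0.85). Among 16 genes of the IL-1, TNF and IL-6 cytokines 12 rose and 1 fell (median log2 2.19). They included Il18bp, the secreted binding protein of IL-18, which rose 23.7-fold, and the one that fell was Il1r1, the receptor of IL-1, which fell by 0.57 on the log2 scale (adjusted p = 0.015).

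**Figure D3:**
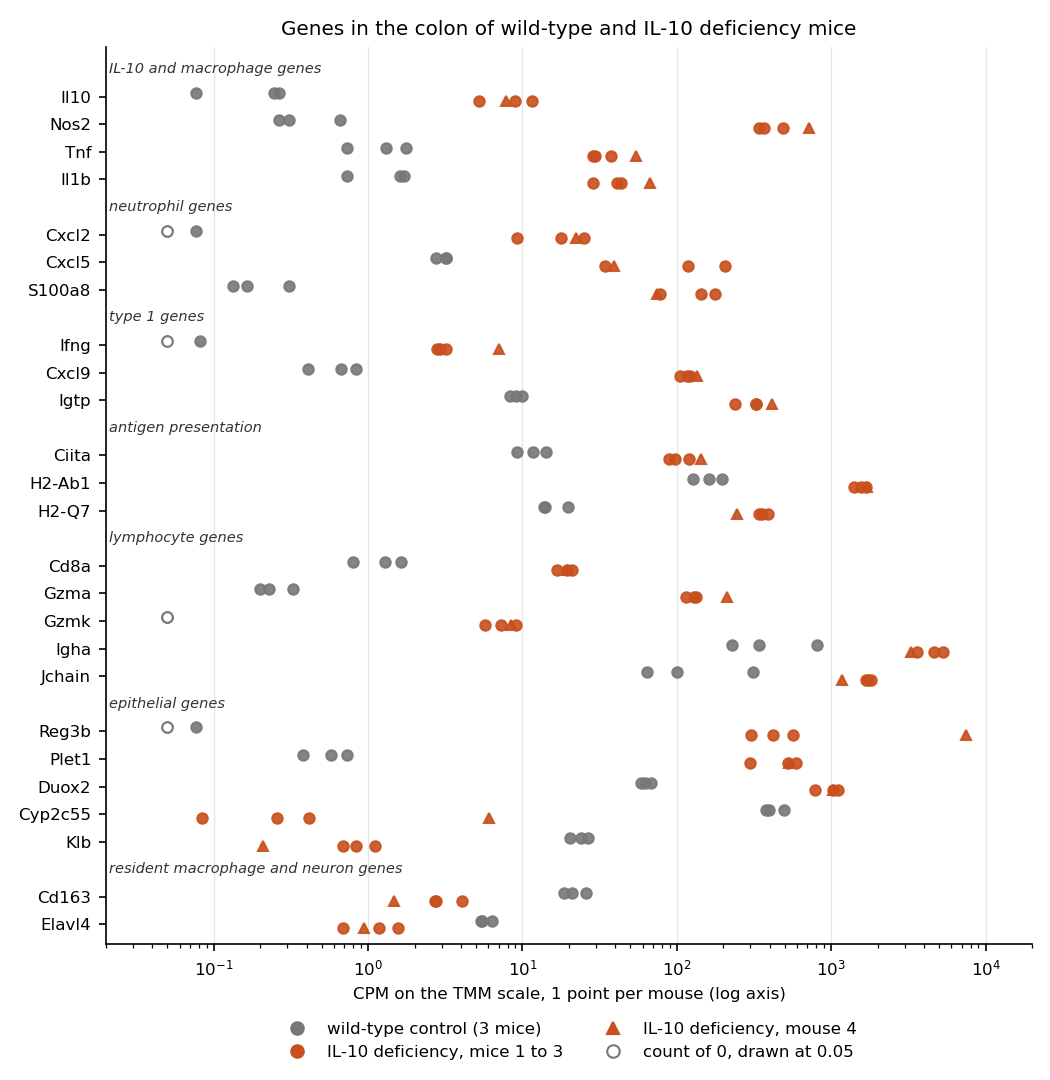
CPM (log axis) of 25 genes in each of the 3 wild-type control mice (grey) and the 4 IL-10 deficiency mice (orange, mouse 4 as a triangle), with counts of 0 drawn as open points at 0.05. The groups do not overlap for any gene shown; Reg3b spans 303 to 7510 CPM among the IL-10 deficiency mice, while Nos2 spans 342 to 717 CPM.

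Neutrophil genes rose in all 4 IL-10 deficiency mice, and those that rose most were near 0 in the control colon. The summed level of the markers was 134 to 148 CPM in the controls and 326 to 1251 CPM in the IL-10 deficiency mice. Of 15 tested neutrophil markers 14 rose and none fell (median log2 5.19), and of 7 chemokines and receptors that guide neutrophils 5 rose and none fell (median log2 6.19, or 6.00 where genes without a control read enter at the bound given below). S100a8, a subunit of the calprotectin complex that neutrophils carry, stood at 0.305, 0.133 and 0.164 CPM in the controls and at 144, 176, 77.6 and 74.2 CPM in the IL-10 deficiency mice (log2 9.14 ± 1.12, edgeR adjusted p = 1.3e-06). Its partner S100a9 rose 656-fold (log2 9.36). Il1f9, an IL-1 family cytokine also called IL-36 gamma, had no count in the controls and 3.13 to 7.12 CPM in the model, at least 69.6-fold higher (3 counts over the 3 controls as the floor, here and below).

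The chemokines Cxcl2 and Cxcl3 and their receptor rose as well. Cxcl2 stood at 0.0762, 0 and 0 CPM in the controls, 1 read in all, and at 17.7, 25.2, 9.17 and 22.3 CPM in the IL-10 deficiency mice, a ratio of 730 with an exact 95% counting interval of 131 to 28900. Cxcl3 was at least 81.5-fold and the receptor Cxcr2 at least 63.9-fold higher (edgeR adjusted p = 0.00032 and 0.00031). Cxcl5, which epithelial cells make, rose from 2.74, 3.19 and 3.20 CPM to 118, 205, 34.2 and 39.0 CPM (log2 5.02 ± 0.68, adjusted p = 3.9e-06), and mice 3 and 4 were the low ones of the 4. Of 16 CC chemokines 10 rose and none fell (median log2 2.00). They were led by Ccl5, which draws T cells and rose 37.8-fold, Ccl4 with a ratio of 29.3 over 3 reads in the controls (interval 9.71 to 145), and Ccl8, which rose 18.1-fold from 1.97 to 3.33 CPM to 42.9 to 45.9 CPM. The call of Ccl4 was lost without control mouse 1 or 2 (adjusted p = 0.051 and 0.057).

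Genes of the type 1 response, the arm driven by interferon gamma, rose together. Of 18 genes of the type 1 axis 15 rose and none fell, with a median log2 of 2.75. Ifng, the gene of interferon gamma, had 1 read in the controls and stood at 3.20, 2.80, 2.92 and 7.00 CPM in the IL-10 deficiency mice, a ratio of 157 (exact 95% counting interval 27.8 to 6230, edgeR adjusted p = 0.0097), or of 120 without mouse 4. Tbx21, the transcription factor T-bet of type 1 lymphocytes, rose from 0.152, 0.333 and 0.410 CPM to 2.95, 2.39, 3.26 and 2.09 CPM (log2 3.13 ± 0.59, adjusted p = 0.00014). Cxcl9, a chemokine for T cells that interferon gamma induces, stood at 0.838, 0.666 and 0.410 CPM in the controls and at 116, 122, 105 and 135 CPM in the model (log2 7.51 ± 1.40, adjusted p = 0.00013). Cxcl10, its relative, rose 35.5-fold.

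The interferon-inducible GTPases, which attack the vacuoles of bacteria and parasites inside cells, rose as a family. All 18 tested members were higher, without overlap between the mice of the groups, and they stayed higher without mouse 4 and without mice 3 and 4 (median log2 3.78). Gm12250, also called Irgb10, stood at 0.609, 0.399 and 0.574 CPM in the controls and at 92.2, 84.9, 71.3 and 108 CPM in the IL-10 deficiency mice (log2 7.39 ± 1.30, edgeR adjusted p = 7.0e-05). Igtp, also called Irgm3, rose from 9.06, 8.32 and 10.0 CPM to 326, 326, 239 and 415 CPM (log2 5.16 ± 1.01, adjusted p = 0.00020). Tgtp1 rose 77.7-fold and Gm4841, with 2 reads in the controls, had a ratio of 379 (interval 105 to 3140), or of 251 without mouse 4. Gbp10 had no count in the controls and was at least 34.3-fold higher. Tgtp1 and Gbp10 share 91.4% and 82.5% of their 50-base windows with near copies, so the values of each single copy are uncertain.

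The stretches before the starts of some of these genes are shown because the GTPases moved together. Letter patterns to which interferon-activated factors bind are marked in them. The sequences are from RefSeq on GRCm38.p6, 250 bases up to the transcription start and 5′ to 3′ on the gene's strand. Capitals mark TTCNNNGAA, called GAS, or GAAANNGAA, a core of the ISRE that IRF factors bind, on either strand. Only genes called higher whose stretch holds a GAS or an ISRE core were picked for printing, by size of rise. The marks in the printed stretches follow from that choice. Cxcl9 is shown beside the GTPases as a type 1 gene picked in the same way, with a single ISRE core. Its stretch also matches the kappa B pattern described below, which is not marked. Gm12250 (chr11:58183593-58183842, plus strand) carries 2 ISRE cores around 1 GAS, Tgtp1 (chr11:48992247-48992496, minus strand) and Igtp (chr11:58199306-58199555, plus strand) carry a GAS followed closely by an ISRE core, and Cxcl9 lies at chr5:92328080-92328329 (minus strand).
Gm12250: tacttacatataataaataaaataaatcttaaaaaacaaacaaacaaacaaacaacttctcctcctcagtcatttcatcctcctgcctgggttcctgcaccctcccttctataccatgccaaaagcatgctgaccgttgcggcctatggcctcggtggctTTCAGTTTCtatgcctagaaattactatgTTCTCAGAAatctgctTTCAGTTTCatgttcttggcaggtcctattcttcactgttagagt
Tgtp1: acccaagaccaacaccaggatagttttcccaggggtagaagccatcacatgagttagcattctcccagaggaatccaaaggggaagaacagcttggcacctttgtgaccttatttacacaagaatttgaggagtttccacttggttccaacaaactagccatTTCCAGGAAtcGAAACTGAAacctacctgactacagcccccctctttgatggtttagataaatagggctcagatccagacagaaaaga
Igtp: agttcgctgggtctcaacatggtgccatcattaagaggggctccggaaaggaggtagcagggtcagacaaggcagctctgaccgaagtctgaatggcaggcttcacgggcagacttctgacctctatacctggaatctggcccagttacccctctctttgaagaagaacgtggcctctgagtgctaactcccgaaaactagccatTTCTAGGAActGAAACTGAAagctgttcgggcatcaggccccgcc
Cxcl9: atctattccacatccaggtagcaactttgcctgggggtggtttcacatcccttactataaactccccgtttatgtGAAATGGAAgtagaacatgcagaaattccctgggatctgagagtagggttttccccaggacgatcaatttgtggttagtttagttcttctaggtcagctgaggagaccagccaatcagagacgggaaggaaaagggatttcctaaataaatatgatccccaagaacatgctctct

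The RefSeq table held 11 of the 18 GTPases, with 12 windows. A GAS stood in 7 of them (58.3%) and an ISRE core in 10 (83.3%), against 2306 (7.02%) and 2342 (7.13%) of all 32851 windows. The kappa B pattern GGGNNTTCC stood in none of the 12 and in 4.98% of all windows. Several GTPase genes are copies of each other, so these windows are not independent. Of 19 windows of 14 type 1 genes, 4 held a GAS, 3 an ISRE core and 2 the kappa B pattern (Cxcl9 and Cxcl10). Of 8 windows of 7 class II genes, 1 held a GAS, none an ISRE core and 2 the kappa B pattern (H2-Aa and H2-Oa). None of the 3 patterns stood in the 6 windows of the neutrophil chemokine list. The kappa B pattern has 9 letters and longer forms of the site were not searched, so its absence does not show that a window lacks such sites. The GAS and ISRE letters can overlap, which they did in 40 of all windows and in none of these lists. A match is a description of letters and not of binding.

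Antiviral interferon-stimulated genes moved in the same direction, with 17 of 18 higher and none lower (median log2 2.52). Oas3, a sensor of double-stranded RNA, rose from 1.14, 0.932 and 0.738 CPM to 65.3, 86.7, 80.2 and 54.8 CPM (log2 6.24 ± 1.10, edgeR adjusted p = 7.1e-05). Zbp1, a sensor of Z-form nucleic acid, rose 38.1-fold and the ubiquitin-like Isg15 30.4-fold.

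The genes for displaying antigen rose together in all 4 mice. All 16 tested genes of the MHC class I pathway were higher and none lower (median log2 2.42), and 7 of 10 of the class II pathway were higher and none lower (median log2 3.13). Ciita, the factor that switches on the class II genes, stood at 9.22, 11.7 and 14.3 CPM in the controls and at 97.7, 89.1, 120 and 143 CPM in the IL-10 deficiency mice (log2 3.26 ± 0.45, edgeR adjusted p = 4.8e-06). H2-Ab1, the beta chain of I-A, rose from 127, 161 and 196 CPM to 1400, 1670, 1570 and 1700 CPM (log2 3.30 ± 0.36, adjusted p = 4.0e-07). Cd74, the invariant chain, rose 11-fold, and H2-DMa and H2-DMb1, which load peptides, 11.9-fold and 19.0-fold. H2-DMb1 shares 27.2% of its windows with its neighbour H2-DMb2.

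The 3 class II genes that did not pass include both chains of H2-O, which is used mostly in B cells. H2-Ob, a chain of H2-O, read 14.3, 18.2 and 23.5 CPM in the controls and 18.0, 17.7, 42.6 and 4.49 CPM in the IL-10 deficiency mice (adjusted p = 0.82). H2-Oa, its partner, and H2-DMb2, which shares 29.5% of its windows with other genes, were not called either (adjusted p = 0.14 and 0.52). Mouse 3 was the highest and mouse 4 the lowest for all 3, as they were for the B cell genes below.

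In class I, Nlrc5, the factor that switches on these genes, rose from 2.59, 3.06 and 4.75 CPM to 75.6, 69.8, 79.0 and 62.1 CPM (log2 4.37 ± 0.75, edgeR adjusted p = 5.0e-05). Tap1, which carries peptides into the endoplasmic reticulum, rose 16.2-fold and B2m, the light chain of every class I molecule, 6.14-fold from 307 to 334 CPM to 1770 to 2170 CPM. H2-Q7, a non-classical class I gene, rose 21.1-fold, with 27.1% of its windows shared with other H2 genes.

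T cell genes rose in every IL-10 deficiency mouse, those of killer cells among them. All 18 T cell markers were higher (median log2 2.81) and 11 of 13 cytotoxic and NK genes (median log2 3.89). Cd8a, a chain of the CD8 coreceptor, stood at 1.29, 0.799 and 1.64 CPM in the controls and at 16.8, 19.3, 20.8 and 19.4 CPM in the model (log2 3.94 ± 0.53, edgeR adjusted p = 3.4e-06). Cd3g, part of the T cell receptor complex, and Cd6, a surface receptor of T cells, rose 12.6-fold and 14.6-fold. Cd4, which macrophages can also carry, rose 3.16-fold, from 5.06 to 9.10 CPM to 16.7, 18.6, 37.0 and 11.3 CPM.

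Granzymes, the proteases that killer cells release, were close to absent in the control colon. Gzma stood at 0.228, 0.20 and 0.328 CPM in the controls and at 129, 133, 114 and 212 CPM in the IL-10 deficiency mice (log2 9.15 ± 0.98, edgeR adjusted p = 3.2e-07). Gzmk had no count in the controls and 7.25, 9.14, 5.74 and 8.46 CPM in the model, at least 101-fold higher (adjusted p = 9.0e-07). Gzmb rose from 0.305, 0.266 and 0.410 CPM to 39.3, 34.5, 37.8 and 44.3 CPM (log2 6.87 ± 0.77, adjusted p = 5.1e-07). The 3 granzymes passed with and without mouse 4.

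Genes of regulatory T cells and of immune checkpoints rose as well, 13 of 15 with none lower (median log2 2.68). Foxp3, the transcription factor that defines regulatory T cells, stood at 0.305, 0.266 and 0.164 CPM in the controls and at 1.43, 1.25, 3.17 and 0.627 CPM in the model (log2 2.68 ± 0.68, edgeR adjusted p = 0.0021). Ctla4 and Tigit, inhibitory receptors of T cells, rose 27.4-fold and 15.7-fold. Ido1, the enzyme that breaks down tryptophan, rose from 0.685, 0.799 and 0.984 CPM to 268, 215, 52.0 and 808 CPM (log2 8.66 ± 1.92, adjusted p = 0.00070). Ido1 is made by macrophages, dendritic cells and epithelium and was the one of this group that varied most between the mice.

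The axes of other helper cells gave a mixed picture. Of 15 tested IL-23 and IL-17 genes 8 rose and 2 fell (median log2 1.18). Il17a, the signature cytokine of Th17 cells, had no count in the controls and 1.18, 0.935, 1.03 and 1.04 CPM in the model, at least 14.2-fold higher (edgeR adjusted p = 0.021), a call lost without control mouse 1 or 2 (adjusted p = 0.053 and 0.058). Il22, which acts on the epithelium, had no count in the controls and 0.506, 0.519, 0.60 and 0.522 CPM in the model, and did not pass (adjusted p = 0.11). It was called higher by DESeq2 (adjusted p = 0.00068), in the edgeR fit on the 2 groups (0.0017) and with a replicate block (0.032). Il22 shares 41.0% of its windows with its copy Iltifb and is uncertain as a single gene. Il17re, the receptor of IL-17C, fell by 1.00 on the log2 scale.

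Of 10 tested type 2 genes 6 rose and 2 fell (median log2 1.23). Il4 fell from 0.914 to 1.33 CPM to 0.514 to 0.623 CPM (log2 -0.97, edgeR adjusted p = 0.013), a call lost without control mouse 2 (-0.82, adjusted p = 0.089). The eosinophil chemokine Ccl24 fell from 2.21, 2.26 and 2.62 CPM to 0, 1.04, 0.0857 and 0.209 CPM (log2 -2.88 ± 0.71, adjusted p = 0.0016). Gata3, the transcription factor of type 2 cells, rose from 0.20 to 0.381 CPM to 3.37, 2.49, 2.23 and 24.2 CPM, a log2 of 4.82 with mouse 4 and of 3.25 without it.

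Antibody-secreting cells and the B cells of follicles behaved differently. Of 19 plasma cell and immunoglobulin genes 17 rose and none fell (median log2 3.15), while of 14 B cell and follicle genes 2 rose and none fell (median log2 0.49). Igha, the constant region of IgA, stood at 228, 340 and 810 CPM in the controls and at 3600, 4630, 5330 and 3290 CPM in the model (log2 3.20 ± 0.38, edgeR adjusted p = 1.1e-06). Jchain, which joins IgA into dimers, rose 10.1-fold from 64.4, 99.7 and 310 CPM to 1670, 1730, 1800 and 1180 CPM. Iglc2, a lambda light chain, rose from 1.90, 2.20 and 4.10 CPM to 103, 166, 399 and 178 CPM (log2 6.28 ± 0.53, adjusted p = 2.1e-07). Control mouse 4 was the highest of the controls for each of these 3.

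The IgG constant regions rose too, with more spread. Ighg2b went from 2.28, 3.99 and 28.6 CPM to 271, 297, 1050 and 99.5 CPM (log2 5.22 ± 0.80, edgeR adjusted p = 1.7e-05) and Ighg3 from 0.533 to 1.13 CPM to 15.6, 17.2, 80.9 and 7.63 CPM, with mouse 3 the highest. Pigr, the epithelial receptor that carries IgA into the lumen, read 3140 to 3510 CPM in the controls and 3090 to 4460 CPM in the model and was not called (log2 0.16 ± 0.19, adjusted p = 0.50).

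Without mouse 4 the number of B cell genes called higher went from 2 to 6, among them Ms4a1, the CD20 gene (log2 0.65, edgeR adjusted p = 0.25, against 1.00 and 0.026). The 2 called with all mice were Ccr7 and Cxcl13, a receptor and a chemokine of lymphoid follicles. Both lost the call without mouse 3 (adjusted p = 0.17 and 0.094) and without control mouse 1 (0.093 and 0.058), and Ccr7 without control mouse 2 (0.081). The summed level of the 14 genes was 132 to 225 CPM in the controls and ran from 57.8 CPM in mouse 4 to 495 CPM in mouse 3, and the part of lymphoid tissue in these results was not tested.

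Most monocyte and macrophage genes rose, and a few genes known from resident macrophages fell. Of 20 monocyte and macrophage markers 15 rose and 2 fell (median log2 1.46). Clec4e, the receptor Mincle, had 2 reads in the controls and stood at 13.1, 8.52, 10.6 and 18.8 CPM in the model, a ratio of 256 (interval 70.5 to 2120). Fcgr4, an activating receptor for IgG, rose 17.0-fold from 1.29, 1.80 and 1.39 CPM to 23.1, 28.3, 20.9 and 30.6 CPM. Arg1, arginase 1, rose 18.1-fold on average, but read 1.54 CPM in mouse 3 and 10.7 to 43.3 CPM in the other 3, against 0.914 to 1.33 CPM in the controls.

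Among the 20 listed markers only Cd163 and Mrc1 fell. Other listed markers, C1qa, Csf1r and Adgre1 among them, were not called lower. Cd163, the receptor that clears haemoglobin, stood at 21, 25.8 and 18.6 CPM in the controls and at 2.70, 4.05, 2.74 and 1.46 CPM in the IL-10 deficiency mice (log2 -2.99 ± 0.43, edgeR adjusted p = 8.4e-06). Mrc1, the mannose receptor CD206, fell 1.80-fold (adjusted p = 0.014), a call lost without mouse 4 (log2 -0.64, adjusted p = 0.051) or control mouse 2 (-0.75, adjusted p = 0.060). Fcrls, an Fc receptor-like gene of resident macrophages and microglia, went from 14.5, 16.7 and 9.92 CPM to 1.77, 1.97, 0.943 and 1.04 CPM (log2 -3.25 ± 0.35, adjusted p = 3.0e-07). F13a1, a subunit of clotting factor XIII made by macrophages, fell 8.00-fold. Fcrls and F13a1 are not among the listed markers. They and Cd163 are named by the rule for the genes lowest against all of wild type, DSS and DNBS.

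Antimicrobial genes of the epithelium rose. Of 18 epithelial antimicrobial genes 16 rose and none fell (median log2 4.43). Reg3b, a lectin secreted against bacteria, had 1 read in all controls and stood at 421, 303, 569 and 7510 CPM in the IL-10 deficiency mice. The ratio was 81600, with a counting interval of 14600 to 3220000 that comes from the single control read (edgeR adjusted p = 4.2e-06). Mouse 4 lay more than 10-fold above the other 3, and without it the ratio was 17700 (interval 3180 to 700000). Its relative Reg3g stood at 275, 183, 298 and 4480 CPM and Retnlb, the goblet cell protein RELM beta, at 78.4, 79.1, 84.8 and 874 CPM, against at most 0.266 CPM in any control. All 3 were called without mouse 4 as well (adjusted p = 1.8e-06, 1.2e-06 and 1.1e-06 for Reg3b, Reg3g and Retnlb).

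Duox2, the epithelial oxidase that makes hydrogen peroxide at the surface, varied far less, from 58.9, 68.2 and 62.5 CPM to 789, 1030, 1110 and 1030 CPM (log2 3.97 ± 0.33, edgeR adjusted p = 1.7e-08). Duoxa2, its maturation factor, rose from 11, 12.2 and 8.36 CPM to 296, 424, 441 and 488 CPM (log2 5.28 ± 0.44, adjusted p = 1.7e-08). Ang4, an antimicrobial ribonuclease of Paneth and goblet cells, rested on mouse 4 alone: it read 1.35, 0.208, 1.29 and 70.3 CPM, and its log2 of 4.90 (adjusted p = 0.0077) went to 0.68 without that mouse (adjusted p = 0.65).

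The rule for the largest rises named other epithelial genes. Plet1, a surface protein of progenitor cells, stood at 0.381, 0.732 and 0.574 CPM in the controls and at 298, 522, 594 and 531 CPM in the model (log2 9.72 ± 0.63, edgeR adjusted p = 2.9e-10). Clca4b, a colonocyte protein, rose from 3.20 to 4.57 CPM to 3340 to 5550 CPM (log2 9.96 ± 0.92, adjusted p = 5.0e-08), with 24.8% of its windows shared with Clca4a. Ceacam12, an adhesion family member, and Sprr2h, a cornified envelope protein, had no count in the controls and were at least 139-fold and at least 349-fold higher. Gml, a GPI-anchored protein, was at least 107-fold higher. Mmp7, the proteinase matrilysin, had 1 read in the controls and stood at 18.0, 11.9, 13.6 and 53.4 CPM in the model, highest in mouse 4, with a ratio of 944 (interval 169 to 37300) and of 594 without that mouse (interval 106 to 23500). Sptssb, a subunit of the enzyme that starts sphingolipid synthesis, had no count in the controls and 2.86, 2.60, 66.3 and 673 CPM in the model, so its size rested on mice 3 and 4.

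Mucus genes rose in part. Of 16 goblet cell and mucus genes 9 rose and 1 fell (median log2 0.80). Muc2, the main mucin of the colon, stood at 752, 724 and 718 CPM in the controls and at 1280, 1700, 1830 and 3650 CPM in the model (log2 1.53 ± 0.26, edgeR adjusted p = 4.5e-05). Muc4, a mucin bound to the membrane, rose 8.17-fold and Fut2, which adds fucose to the mucosal surface, 4.63-fold. Muc1 read 20.2 to 23.4 CPM in the controls and 110, 129, 86.0 and 6.27 CPM in the model, below the controls in mouse 4. Clca1, a secreted goblet cell protein, was the gene that fell, from 2010 to 2550 CPM to 514, 918, 1890 and 771 CPM (log2 -1.18, adjusted p = 0.023), with a call lost without IL-10 deficiency mouse 1 or 4 or control mouse 1 or 4 (log2 -1.16 to -0.96).

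More transport genes of colonocytes fell than rose, with 8 of 20 lower, 3 higher and 9 not called (median log2 -0.54). Slc26a2, a sulfate transporter, fell from 848, 766 and 879 CPM to 178, 256, 351 and 265 CPM (log2 -1.66 ± 0.41, edgeR adjusted p = 0.0018). Slc16a1, the MCT1 carrier that takes up butyrate, fell from 449, 439 and 455 CPM to 217, 231, 200 and 183 CPM (log2 -1.11 ± 0.14, adjusted p = 1.6e-06). Scnn1b, a subunit of the sodium channel ENaC, fell 4.27-fold, and the phosphate transporter Slc20a1 3.22-fold. Scnn1g, another ENaC subunit, and Slc26a3, the chloride and bicarbonate exchanger of surface cells, lost their calls without mouse 4 (log2 -1.63 and -1.17, adjusted p = 0.066 and 0.060), Scnn1g also without mouse 3 or control mouse 1 (adjusted p = 0.075 and 0.089), and Slc26a3 without mouse 1 or control mouse 4 (0.053 and 0.071).

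A few transporters rose. Aqp4, a water channel, stood at 37.2, 44.5 and 45.8 CPM in the controls and at 548, 593, 1010 and 242 CPM in the model (log2 3.81 ± 0.56, edgeR adjusted p = 1.1e-05). Slc9a3, the NHE3 sodium-proton exchanger, rose from 1.22, 1.73 and 1.56 CPM to 29.2, 37.4, 308 and 81.4 CPM (log2 6.23 ± 1.09, adjusted p = 6.5e-05). Guca2b, the gut hormone uroguanylin, was called only with mouse 4 in the fit (log2 1.41, and 0.67 without it, adjusted p = 0.16). Car1, carbonic anhydrase 1, changed sign with that mouse: it read 723 to 969 CPM in the controls and 122, 171, 238 and 3440 CPM in the model, a log2 of 0.26 with all mice (adjusted p = 0.79) and of -2.24 without mouse 4 (adjusted p = 0.00028).

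Xenobiotic metabolism lost more genes than it gained, with 10 of 20 tested genes lower and 2 higher (median log2 -0.59). Cyp2c55, a cytochrome P450 of the colon that oxidizes fatty acids and drugs, had the largest fall of any gene named here, from 394, 379 and 493 CPM to 0.0843, 0.415, 0.257 and 6.06 CPM. Its log2 was -8.03 ± 0.97 (edgeR adjusted p = 1.1e-06), and -10.72 without mouse 4. Abcb1a, the drug efflux pump P-glycoprotein, fell from 563, 599 and 615 CPM to 60.7, 92.5, 154 and 77.8 CPM (log2 -2.62 ± 0.36, adjusted p = 4.7e-06). Sult1a1, a sulfotransferase, fell 6.31-fold. Ugt1a7c, a glucuronosyltransferase that shares 69.3% of its windows with other Ugt1a genes, fell 5.81-fold. Abcg2, the efflux pump BCRP, rose by a log2 of 0.65, and Ces1f, a carboxylesterase, by 1.35, a call lost without mouse 4 (1.06, adjusted p = 0.054) or control mouse 1 (1.23, adjusted p = 0.057).

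Genes of fatty acid oxidation, which fuels colonocytes, went both ways, with 8 of 20 genes higher and 3 lower (median log2 0.22). Ppargc1a, the coactivator of mitochondrial biogenesis, fell from 102, 84.8 and 59.9 CPM to 34.3, 29.9, 19.7 and 8.36 CPM (log2 -1.83 ± 0.43, edgeR adjusted p = 0.0011), while Pparg, the nuclear receptor for fatty acids, rose from 30.4 to 43.9 CPM to 68.9, 80.5, 91.4 and 171 CPM (log2 1.53 ± 0.23, adjusted p = 1.5e-05). Acadm, the medium-chain acyl-CoA dehydrogenase, fell by 0.48 on the log2 scale. Fabp2 was called with mouse 4 and without it (log2 3.39 and 1.49) but not without mice 3 and 4 (0.17, adjusted p = 0.77). The calls of Angptl4, an inhibitor of lipoprotein lipase (higher, adjusted p = 0.032), and Pdk4, a kinase that spares glucose (lower, adjusted p = 0.046), were lost without any 1 of several mice of either group.

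The rule for the largest falls named 11 genes beside Cyp2c55. Klb, the coreceptor beta-klotho, stood at 23.8, 20.3 and 26.5 CPM in the controls and at 1.10, 0.831, 0.686 and 0.209 CPM in the model (log2 -5.01 ± 0.62, edgeR adjusted p = 1.4e-06). Itih2, a heavy chain of a serum protease inhibitor, fell from 41.3, 31.7 and 40.1 CPM to 0.674, 2.39, 0.943 and 0.209 CPM (log2 -5.17 ± 0.47, adjusted p = 4.7e-08). Fxyd4, a regulator of the sodium pump, fell from 184, 149 and 198 CPM to 13, 20.2, 0.60 and 0 CPM (log2 -4.4 ± 0.68, adjusted p = 1.7e-05), lowest in mice 3 and 4. The others were Odf3b (91.6-fold lower), Mettl7a2 (72.1-fold), Minar1 (66.9-fold), Wnt8b, a Wnt ligand (42.6-fold), Klk15, a kallikrein protease (34.9-fold), Cyp2f2, a P450 (17.8-fold), Galnt17, a glycosyltransferase (16-fold), and Bex4 (15.6-fold). Mettl7a2 and Bex4 share 65.1% and 49.7% of their windows with related genes and are uncertain as single genes.

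Cell cycle genes rose in part, and genes of stem cells and Wnt signalling went both ways. Of 20 cell cycle genes 11 rose and none fell (median log2 0.71), led by Ccnb1, cyclin B1, from 37.2, 30.9 and 22.0 CPM to 122, 68.7, 69.2 and 63.9 CPM (log2 1.43 ± 0.32, edgeR adjusted p = 0.00082), Cdc20 (2.53-fold) and Birc5 (2.32-fold). Ccnb1 shares 42.1% of its windows with pseudogene copies and is uncertain as a single gene. Of 13 stem cell and Wnt target genes 4 rose and 5 fell (median log2 -0.18). Znrf3, which removes Wnt receptors and is itself a Wnt target, fell from 11.9, 14.4 and 15.7 CPM to 6.66, 6.34, 6.00 and 4.39 CPM (log2 -1.26 ± 0.18, adjusted p = 8.0e-06). Lgr5, the stem cell receptor, and Ascl2, its transcription factor, differed by -1.21 and -1.16 on the log2 scale (adjusted p = 0.032 and 0.030), calls lost without mouse 4 (-1.15 and -1.01, adjusted p = 0.062 and 0.076) and without each of several other mice. Ephb2, a receptor that orders cells along the crypt, rose from 36.3, 42.5 and 47.9 CPM to 86.3, 98.5, 104 and 102 CPM (log2 1.21 ± 0.15, adjusted p = 1.2e-06). Prom1 rose 4.36-fold, most in mouse 4 (732 CPM), a call lost without mice 3 and 4 (log2 0.89 against 2.13, adjusted p = 0.079) and with a replicate block (1.66, adjusted p = 0.068). Olfm4 had a ratio of 20.5 over 3 control reads (interval 6.70 to 102). Without mouse 4 the Wnt list had 4 genes higher and 1 lower.

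Epithelial structural genes were higher in 8 of 9 cases and lower in none (median log2 0.66). Krt20, the keratin of surface cells, rose from 368, 360 and 526 CPM to 1690, 2420, 2140 and 3470 CPM (log2 2.54 ± 0.30, edgeR adjusted p = 8.0e-07), Cldn7, a claudin, 2.24-fold and Vil1, villin of the brush border, 2.09-fold. They moved beside lower genes of the muscle and nerve layers. Of 9 smooth muscle genes 8 were lower (median log2 -1.14), of 13 genes of enteric neurons and glia 9 were lower and 1 higher (median log2 -1.38), and of 16 enteroendocrine and tuft cell genes 9 were lower (median log2 -0.89).

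Smtn, smoothelin, fell from 302, 317 and 301 CPM to 93.3, 144, 85.2 and 83.0 CPM (log2 -1.60 ± 0.31, edgeR adjusted p = 0.00020) and Myh11, the smooth muscle myosin, 2.74-fold. Synpo2, a protein of the contractile apparatus, fell 2.32-fold. Elavl4, an RNA-binding protein of neurons, fell from 6.32, 5.39 and 5.49 CPM to 1.18, 1.56, 0.686 and 0.940 CPM (log2 -2.39 ± 0.31, adjusted p = 3.0e-06). Chat, the enzyme that makes acetylcholine, read at most 0.998 CPM and was called lower (adjusted p = 0.029), a call lost without mouse 1 or 2 or control mouse 2 (adjusted p = 0.074, 0.075 and 0.11). Without mice 3 and 4 only 3 of the 9 muscle genes were lower. The summed level of the 9 genes was 7230 to 8847 CPM in the controls and 2861 to 5408 CPM in the model, beside 9485 to 11380 CPM and 15230 to 21660 CPM for the 9 epithelial structural genes, and the part of muscle and mucosa content in the other results was not tested.

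Tac1, the gene of substance P, was the one neuronal gene that rose, from 22.9, 21.6 and 18.2 CPM to 171, 363, 186 and 40.8 CPM (log2 3.18 ± 0.45, edgeR adjusted p = 5.9e-06). Tph1, the enzyme of serotonin synthesis in enterochromaffin cells, fell from 14.5, 15.2 and 23 CPM to 7.92, 8.41, 5.32 and 4.08 CPM (log2 -1.44 ± 0.37, adjusted p = 0.0026) and Chgb, a granule protein of the same cells, 2.10-fold. Alox5, the lipoxygenase of leukotriene synthesis in tuft and myeloid cells, fell 2.21-fold (adjusted p = 0.013), a call lost without control mouse 1 (log2 -1.04, adjusted p = 0.051).

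IL-10 deficiency was then set against DSS and DNBS, chemical injuries of the epithelium, to see which of its changes stood apart. Against DSS 4584 genes (24.6%) were higher and 4679 (25.1%) lower, and against DNBS 3242 (17.4%) were higher and 3076 (16.5%) lower. Upper quartile scaling shifted these splits as well, to 39.6% and 40.1% of calls higher, against 49.5% and 51.3%. As all 3 models share their controls, a difference between models is also the difference between their changes, and 2170 genes were higher and 1844 lower than in wild type, DSS and DNBS alike. Among the DSS mice, mouse 8 stood apart with far higher cytokine and neutrophil genes (Il1b at 1290 CPM, against 48.4 and 84.1 CPM in mice 5 and 6). Of the genes named against DSS below, Il1b, Cxcl2 and Il22 lost their call without it. The DSS mice were culled after DSS had been withdrawn, so time after injury and kind of model cannot be told apart.

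Most plasma cell, T cell and antigen display genes were higher in IL-10 deficiency than in either injury. Other lymphocyte lists were not, since of 14 B cell and follicle genes none was higher and 5 lower than in DSS (2 lower without DSS mouse 8), and of 15 regulatory T cell and checkpoint genes 3 were higher and 2 lower (6 higher and none lower without it). Against DNBS 5 and 10 genes of these lists were higher and none lower. Of 19 plasma cell genes 13 were higher than in DSS and 1 lower (15 and 1 without DSS mouse 8), and 17 were higher than in DNBS. Igha read 277, 175 and 284 CPM in DSS and 237, 215 and 93.2 CPM in DNBS, below the lowest IL-10 deficiency mouse (3290 CPM) in each case (log2 4.10 ± 0.40 and 4.53 ± 0.41, edgeR adjusted p = 1.2e-07 and 1.5e-07). Jchain differed by 4.4 and 5.07 on the log2 scale. Without DSS mouse 8 the differences from DSS were 4.22 for Igha and 4.56 for Jchain. Igkv12-38, a kappa variable segment, was picked for being among the highest against wild type, DSS and DNBS. It stood at 4.18 to 19.2 CPM in the model and at no more than 0.0799 CPM in any DSS or DNBS mouse.

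The 7 class II genes called against the controls and 12 of 18 T cell markers were higher than in DSS (13 of 18 without DSS mouse 8), and 7 class II genes and 17 T cell markers were higher than in DNBS. H2-Ab1 stood at 312, 223 and 633 CPM in DSS and at 194, 132 and 470 CPM in DNBS, against 1400 to 1700 CPM (log2 2.03 ± 0.34 and 2.58 ± 0.35, edgeR adjusted p = 3.8e-05 and 2.5e-05). Cd8a differed by 2.43 and 3.32 on the log2 scale. Gzmk read 0.126, 0 and 0.240 CPM in DSS and at most 0.0597 CPM in DNBS (log2 5.91 ± 0.59 and 7.81 ± 0.72, adjusted p = 1.6e-06 and 7.0e-06). Gzma read 4.28, 2.66 and 23.7 CPM in DSS, with mouse 8 the highest, and 0.895, 0.387 and 8.86 CPM in DNBS (log2 3.87 ± 0.66 and 5.50 ± 0.74). Without DSS mouse 8 the log2 differences from DSS were 2.57 for H2-Ab1, 2.91 for Cd8a, 6.67 for Gzmk and 5.39 for Gzma, and 7 class II genes were higher. All 16 class I genes were higher than in DNBS and 13 higher than in DSS, or 16 without DSS mouse 8.

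**Figure D4:**
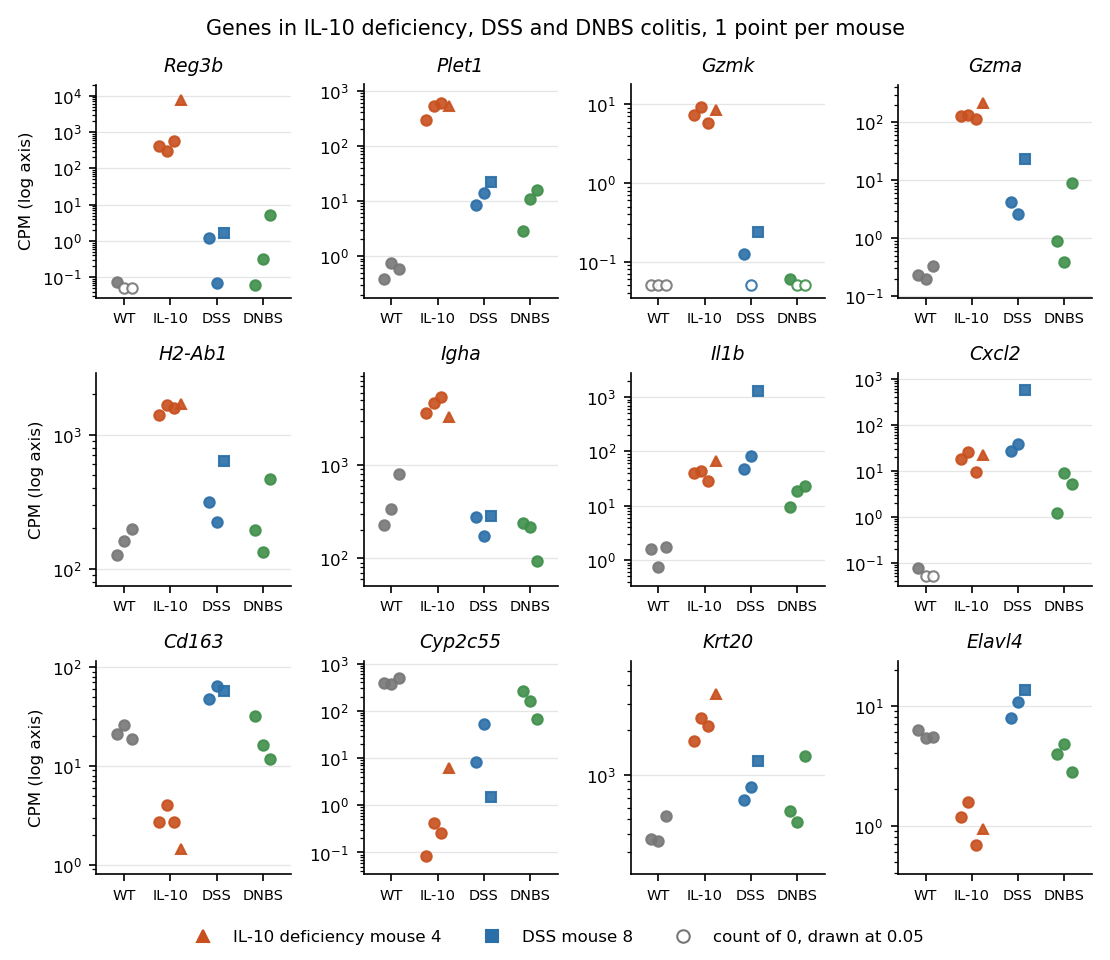
CPM (log axis) of 12 genes in wild-type control (WT, 3 mice), IL-10 deficiency (4 mice), DSS (3 mice) and DNBS (3 mice), with IL-10 deficiency mouse 4 as a triangle, DSS mouse 8 as a square and counts of 0 as open points at 0.05. Igha, H2-Ab1 and Gzmk are higher in all 4 IL-10 deficiency mice than in any other mouse, while for Il1b and Cxcl2 DSS mouse 8 lies at 1290 and 562 CPM, above every other mouse.

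Neutrophil and cytokine genes went the other way against DSS, and this rested on DSS mouse 8. Of 15 neutrophil markers 11 were lower than in DSS and none higher, but 3 lower and 1 higher without that mouse, and of 16 IL-1, TNF and IL-6 genes 9 were lower and none higher, but 2 lower and 1 higher without it. Il1b differed by -3.40 ± 0.72 on the log2 scale (edgeR adjusted p = 0.00041) and by -0.56 without DSS mouse 8 (adjusted p = 0.34). Cxcl2 went from -3.49 to -0.81 (adjusted p = 0.20) and Il22 from -5.01 to -1.25 (adjusted p = 0.26). Against DNBS the log2 differences of Il1b and Cxcl2 were 1.41 and 1.91 (adjusted p = 0.14 and 0.063). Both were called higher by DESeq2 (adjusted p = 0.0020 and 0.0067), Il1b also in the edgeR fit on the 2 groups (0.042), and Cxcl2 without the filter on low counts (0.043) or without IL-10 deficiency mouse 3 (0.048). Of the 18 GTPases, 2 were lower than in DSS and none higher with all DSS mice, and 9 were higher and none lower without mouse 8.

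**Figure D5:**
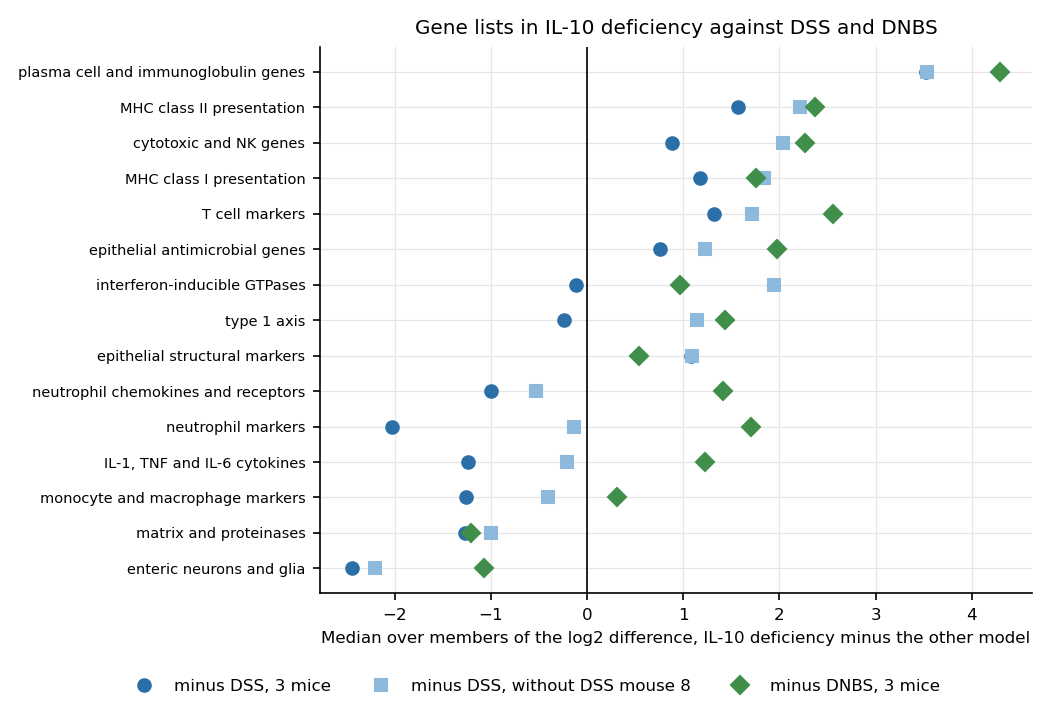
Median over the members of 15 gene lists of the log2 difference, IL-10 deficiency minus DSS (blue circles), minus DSS without DSS mouse 8 (pale squares) and minus DNBS (green diamonds). The plasma cell, class II, class I and T cell lists lie above 0 in all 3, and the neutrophil marker median moves from -2.03 to -0.14 when DSS mouse 8 is left out.

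Some epithelial genes also stood apart from both injuries. Reg3b and Reg3g were picked for being highest against wild type, DSS and DNBS. Their differences follow in part from that choice. Reg3b read at most 1.68 CPM in DSS and 5.11 CPM in DNBS (log2 11.15 ± 1.62 and 10.34 ± 1.56, edgeR adjusted p = 7.5e-06 and 6.7e-05) and Reg3g at most 3.84 and 4.09 CPM (log2 9.72 and 9.77). Plet1 stood at 8.36, 14.1 and 22.2 CPM in DSS and at 2.86, 10.8 and 15.9 CPM in DNBS (log2 5.03 ± 0.47 and 5.64 ± 0.49, adjusted p = 7.0e-08 and 7.2e-08). Krt20 differed by 1.41 and 1.61 on the log2 scale, and 9 of 9 structural genes were higher than in DSS, also without DSS mouse 8, and 6 than in DNBS. Without DSS mouse 8 the log2 differences from DSS were 11.70 for Reg3b, 11.27 for Reg3g, 5.43 for Plet1 and 1.70 for Krt20. Without IL-10 deficiency mouse 4 the differences from DSS and DNBS were 8.79 and 7.98 for Reg3b and 7.35 and 7.39 for Reg3g. The rule that picked Reg3b and Reg3g also named Apol10c-ps, Slc51a and H2-T3. These read 87.7, 119 and 173 CPM in mouse 4 and at most 1.71, 0.623 and 10.0 CPM in mice 1 to 3. Without mouse 4, Slc51a was called against neither model (adjusted p = 0.23 and 0.31), and Apol10c-ps, which shares 32.3% of its windows with a related gene, was not called against DSS (adjusted p = 0.060). H2-T3 kept its calls against both, with log2 differences of 5.33 and 3.86.

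Cyp2c55 and a few genes of macrophages were lower than in both injuries. Cyp2c55, Odf3b, Bex4, Cd163, F13a1 and Fcrls were picked for being lowest against wild type, DSS and DNBS. Their differences from DSS and DNBS follow in part from that choice. The 20 monocyte and macrophage markers as a list were not, with 13 lower and none higher than in DSS (7 lower and 2 higher without DSS mouse 8), and 7 higher and 2 lower than in DNBS. Cyp2c55 read 8.24, 51.7 and 1.52 CPM in DSS and 263, 162 and 66.8 CPM in DNBS (log2 -3.68 ± 0.91 and -6.67 ± 0.93, edgeR adjusted p = 0.0018 and 3.6e-05), and the call against DSS was lost without DSS mouse 6 (-1.66, adjusted p = 0.13). Cd163 stood at 47.9, 63.9 and 57.1 CPM in DSS, against 18.6 to 25.8 CPM in the controls, and at 32.3, 16.4 and 11.8 CPM in DNBS (log2 -4.36 ± 0.44 and -2.88 ± 0.43, adjusted p = 1.4e-07 and 6.7e-05). F13a1 differed by -4.13 and -3.00, Fcrls by -3.49 and -3.12 and Bex4 by -2.90 and -4.17 on the log2 scale. Odf3b differed by -3.01 and -4.51, and its call against DSS was lost without DSS mouse 6 (-2.17, adjusted p = 0.051). Elavl4 was lower than in both (log2 -3.30 ± 0.31 and -1.82 ± 0.32), as were 11 and 8 of 13 genes of neurons and glia. Without DSS mouse 8 the log2 differences from DSS were -4.22 for Cyp2c55, -4.35 for Cd163, -3.97 for F13a1, -3.67 for Fcrls, -3.16 for Bex4, -3.36 for Odf3b and -3.10 for Elavl4, and 11 neuron and glia genes were lower. Without IL-10 deficiency mouse 4 Cyp2c55 differed by -6.34 from DSS and by -9.36 from DNBS.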

How the data were processed

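Whole colon segments were stored in RNAlater, and poly-T selected mRNA was made into unstranded libraries, so reads of overlapping antisense genes cannot be told apart. The authors deposited 1 table of raw read counts per gene, and their processing notes name Trimmomatic, HISAT2, HTSeq and the build GRCm38, with versions not given in the sources used here. The deposited counts of 54532 genes in 29 mice were used as they stood, with gene names and positions from GENCODE M21, and 92 spike-in entries held no count.

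The 18616 genes whose counts averaged 3 or more across the 29 mice were fitted with edgeR 4.0.16 in R 4.3.3 (TMM scaling, quasi-likelihood F test, 9 groups, no covariate), and p values were adjusted over all of them by Benjamini-Hochberg. The SE is the log2 difference divided by the root of F. All 9 pairs of libraries within the 2 groups differed by more than sampling noise (lowest chi-square over its degrees of freedom 3.65). Where the controls held no read, a bound against 3 reads over the 3 controls (0.0743 CPM) is given, and for 1 to 3 reads a ratio with an exact 95% interval, both of counting error only.

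The members and the 42 lists (569 genes, 547 tested) were chosen with earlier results of these data known. Named genes are list members, first the 3 called with the largest rise and the 3 with the largest fall in each list, the 12 largest rises and falls without overlap at a mean of at least 5 CPM, and the 6 genes highest and lowest against wild type, DSS and DNBS alike, and genes that share much sequence with others are given with its percent. Some genes the rule names are not reported here. Shared sequence is the percent of a gene's 50-base windows found in another gene's transcripts. Alternatives were RLE and upper quartile scaling, other filters, DESeq2 1.42.0, fits on 2 groups, a replicate block, a threshold of 0.01 and leaving out each mouse, with leaving out mice 3 and 4 together chosen after seeing the data. Whether same-numbered mice deviate together was checked, and the 3 correlations were 0.0556, 0.0139 and -0.0201, so they were not treated as pairs.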

Additional observations from a re-analysis of the deposited data

Results flagged for a closer look

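Among the 4 IL-10 deficiency mice, 184 genes were examined for a mouse whose gap to its nearest neighbour, divided by the range of the 4, passes Dixon's critical value for 4 samples. In 24 genes (13%) it did, and the mouse was number 4 in 17 of them, 2 in 4, 1 in 2 and 3 in 1. Chance flags about 1 in 20 groups of unselected, independent values, which these genes, named for their changes in the same mice, are not.

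Mouse 4 was the highest for the antimicrobial genes Reg3b (0.963), Reg3g (0.973), Retnlb (0.992) and Ang4 (0.984), for Slc51a (0.995), Fabp2 (0.840), Car1 (0.965) and Cyp2c55 (0.945), for Sptssb (0.905) and Mmp7 (0.853), for the class I gene H2-T3 (0.948) and Apol10c-ps (0.980), and for Gata3 (0.948), Ifng (0.905) and Gm4841 (0.882). It was the lowest for Cyp2f2 (0.860) and Pecam1 (0.855), an adhesion protein of endothelium. Mouse 2 was the highest for Klk15 (1.00, the only one of the 4 with any read), Clca4b (0.860) and Smtn (0.830) and the lowest for Cxcl10 (0.849). Mouse 1 was the highest for Lgr5 (0.837) and Ccnb1 (0.910), and mouse 3 for Ighg3 (0.869). Mouse 4 is also the library without distal Hox genes, and the part of segment position in these values was not tested.

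The other flagged results are differences between the change in IL-10 deficiency and the change in another model, each tested directly as a contrast of the models in edgeR, since the models share their controls. Reg3b, Reg3g, Igkv12-38, Slc51a, Apol10c-ps, H2-T3, Cyp2c55, Odf3b, Bex4, Cd163, F13a1 and Fcrls were picked by these same contrasts, so their values are a description. For lymphocyte and antigen display genes the log2 differences against DSS and DNBS were 2.03 and 2.58 for H2-Ab1, 2.43 and 3.32 for Cd8a, 5.91 and 7.81 for Gzmk and 3.87 and 5.50 for Gzma. For antibody genes they were 4.10 and 4.53 for Igha, 4.4 and 5.07 for Jchain and 8.58 and 8.55 for Igkv12-38. For epithelial genes they were 11.15 and 10.34 for Reg3b, 9.72 and 9.77 for Reg3g, 5.03 and 5.64 for Plet1 and 1.41 and 1.61 for Krt20.

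Slc51a (8.18 and 8.12) and Apol10c-ps (8.63 and 11.12) lost calls without mouse 4 or without mice 3 and 4. H2-T3 (8.82 and 7.37) kept its calls without mouse 4, at 5.33 and 3.86. Where a group holds almost no read, such fitted differences depend on the prior count.

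Lower than in both models were Cyp2c55 (-3.68 and -6.67), Odf3b (-3.01 and -4.51), Bex4 (-2.90 and -4.17), Cd163 (-4.36 and -2.88), F13a1 (-4.13 and -3.00), Fcrls (-3.49 and -3.12) and Elavl4 (-3.30 and -1.82). Lower than in DSS were Il1b (-3.40), Cxcl2 (-3.49) and Il22 (-5.01), whose calls were lost without DSS mouse 8 (-0.56, -0.81 and -1.25).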

How the results depend on the processing

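Against wild-type control the counts of 5058 higher and 4858 lower genes stayed within 1.5 times under every alternative. They were 4686 and 4216 with DESeq2, and 4236 to 4871 and 4120 to 4753 with 1 mouse left out. With a replicate block for the mice of the same number they were 3928 and 3702, and the numbers do not pair the mice. Against DSS, 2526 genes in place of 4584 were higher when only the 2 groups were fitted. Against DNBS, where 3242 were higher and 3076 lower, the fit on the 2 groups gave 1268 and 1142, and an adjusted p under 0.01 gave 1962 and 1619. DESeq2 gave 1738 lower genes and leaving out mice 3 and 4 of IL-10 deficiency 1913. With 1 mouse left out the counts against DNBS ran from 1824 to 3497 and from 1704 to 3321, lowest without DNBS mouse 11. Smaller samples and an own estimate of the spread are part of these fits, and other causes were not tested. Of 232 gene results over 3634 values, 3441 kept their direction and call, 178 lost and 13 gained the call, and 2 reversed. Both were Car1, which went from 0.26 to -2.24 without mouse 4 and to -2.50 without mice 3 and 4, and its values with 1 mouse left out ran from -2.24 to 0.63. Of 1344 list counts 133 moved by more than 1.5 times. The depth of 11468819 to 13524777 counts limits genes such as Il22 and Il17a, which rest on few reads.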

Other observations

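Of 15 genes of regenerative and wounded epithelium 9 were higher and 1 lower (median log2 1.03). Sprr1a, a cornified envelope protein, went from 1.37, 1.06 and 1.80 CPM in the controls to 34.5, 87.5, 65.8 and 148 CPM (log2 5.90 ± 0.61, edgeR adjusted p = 2.4e-07), and Plaur, the urokinase receptor, rose 10.7-fold. Of 18 matrix and proteinase genes 9 were higher and none lower, and 5 were higher without mouse 4. Mmp10 and Mmp12, proteinases of epithelium and macrophages, rose 29.1-fold and 7.83-fold. Against DSS and DNBS, 11 and 12 of the 18 matrix genes were lower (10 against DSS without DSS mouse 8).

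Of 14 circadian clock genes 6 were lower and 1 higher (median log2 -0.48). Arntl, which codes for the activator BMAL1, went from 80.8, 84.1 and 70.7 CPM to 35.0, 34.9, 41.8 and 24.3 CPM (log2 -1.21 ± 0.17, edgeR adjusted p = 5.9e-06). Per3 and Cry2, repressors of the clock, fell 3.24-fold and 2.68-fold, while Dbp, a clock output gene, rose 3.40-fold. The hour of culling is not given in the labels, and its part was not tested.

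Of 12 genes of endothelial activation 5 were higher and 2 lower. Madcam1, the address for gut-homing lymphocytes, rose 3.85-fold and Icam1, an adhesion receptor, 3.76-fold, and Glycam1 fell by 2.02 on the log2 scale. Of 8 mast cell genes 2 were higher and 1 lower. Hdc, the enzyme that makes histamine, went from 0.246 to 0.399 CPM to 7.72 to 15.7 CPM (edgeR adjusted p = 0.00059), and Kit, the receptor of mast cells and pacemaker cells, fell 2.11-fold. Among 10 squamous epithelium genes 1 was higher and none lower, and among 7 tested pancreas and adipose genes 2 were higher and 1 lower.

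Rps3a3, a further copy beside Rps3a1 and Rps3a2, read 1.98 to 3.36 CPM in the controls and 273 to 393 CPM in the IL-10 deficiency mice, with 65.1% of its windows shared with other copies, and the 3 copies summed to 867 to 905 CPM and 870 to 1150 CPM. In 4 of the 29 libraries, IL-10 deficiency mouse 4 among them, ribosomal RNA genes summed to 6.90 to 27.5 CPM, against 589 to 1890 CPM in the other 25. In the same 4 libraries 17 genes were at least 4-fold lower, 9 of them protein-coding, and none is in a list used here. The 17 include ribosomal RNA genes such as mt-Rnr1 and mt-Rnr2, by whose sum the 4 libraries were picked.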
